A study of Homo sapiens with 15 samples.

Results

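The SREBP sensing and processing machinery is the set of 7 genes that hold the sterol regulatory element-binding proteins (SREBPs) in the endoplasmic reticulum and release them: SREBF1, SREBF2, SCAP, INSIG1, INSIG2, MBTPS1 and MBTPS2. The members were chosen by gene symbol, and 7 of the 60107 genes listed in each library carried these symbols, 1 row per symbol. RNA-seq was performed on the pancreatic carcinoma line MIA PaCa-2, of human origin and with no engineered change named in the labels, in 5 groups of 3 libraries. The groups were cells given vehicle (Ctrl) or 5 µM of Lys05, BAQ12, BAQ13 or BAQ12O, each for 24 h. Lys05 is a bisaminoquinoline that inhibits autophagy in lysosomes. BAQ12 and BAQ13 join such a cationic head to a long hydrophobic tail, assemble into nanoparticles (NPs), and belong to a series in which the length of the tail differs. The labels name BAQ12O without describing it. All 15 libraries come from a single cell line, and since nothing in the labels says whether replicates were separate cultures, each p-value measures only the spread between these libraries.

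SREBPs are membrane-bound transcription factors that switch on the genes of cholesterol and fatty acid synthesis. When endoplasmic reticulum cholesterol is low, the escort protein SCAP carries them in COPII-coated vesicles to the Golgi, where the proteases encoded by MBTPS1 and MBTPS2 cut them in turn and free the part that enters the nucleus. When sterols are plentiful, the INSIG proteins hold SCAP back. INSIG1 and SREBF2 are themselves known SREBP target genes, and SREBF1 is also known to be driven by the liver X receptors, which sense oxysterols. Messenger RNA levels, which are what was measured here, do not show whether a precursor was moved or cut.

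The 250 bases upstream of the RefSeq gene start are shown for INSIG1, SREBF2 and SREBF1, whose mRNA levels changed with BAQ13, and for INSIG2, the paralogue of INSIG1 that passed no test. The sequences are from RefSeq (GRCh38.p14) and run 5′ to 3′ on the strand of the gene. Capitals mark 3 motifs searched on both strands: the core of the sterol regulatory element (SRE), TCACCCCAC; the E-box CACGTG, shown with its flanks where it lies within TCACGTGA; and the CCAAT box, read as ATTGG on the opposite strand.

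INSIG1, chr7:155297628-155297877, plus strand: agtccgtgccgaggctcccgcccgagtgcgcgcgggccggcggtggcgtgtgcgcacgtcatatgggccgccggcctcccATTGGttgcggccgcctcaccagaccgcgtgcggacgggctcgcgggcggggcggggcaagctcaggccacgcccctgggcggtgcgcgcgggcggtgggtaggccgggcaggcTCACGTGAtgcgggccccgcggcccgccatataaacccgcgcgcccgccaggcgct

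SREBF2, chr22:41832855-41833104, plus strand: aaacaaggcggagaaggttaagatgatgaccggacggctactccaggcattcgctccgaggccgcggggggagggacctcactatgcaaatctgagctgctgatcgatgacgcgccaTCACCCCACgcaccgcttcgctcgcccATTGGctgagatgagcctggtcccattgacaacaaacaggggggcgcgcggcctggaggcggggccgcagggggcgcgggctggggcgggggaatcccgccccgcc

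SREBF1, chr17:17836987-17837236, minus strand: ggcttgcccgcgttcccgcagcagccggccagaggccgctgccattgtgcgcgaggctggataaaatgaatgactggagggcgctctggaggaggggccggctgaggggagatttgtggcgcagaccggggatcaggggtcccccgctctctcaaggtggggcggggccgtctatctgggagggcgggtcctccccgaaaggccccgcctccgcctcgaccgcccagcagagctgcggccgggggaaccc

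INSIG2, chr2:118088221-118088470, plus strand: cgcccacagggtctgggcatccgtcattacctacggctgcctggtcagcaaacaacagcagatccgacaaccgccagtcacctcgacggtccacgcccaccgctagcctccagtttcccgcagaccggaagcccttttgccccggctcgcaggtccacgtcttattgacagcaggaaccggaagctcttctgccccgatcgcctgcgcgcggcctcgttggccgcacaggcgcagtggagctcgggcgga

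The window of SREBF2 held the SRE core with its first base at position -133 from the start and a CCAAT box at -106. The same 9 letters were found in 151 of 35116 RefSeq promoter windows (0.43%), each covering 250 bases before and 50 after a start. The window of INSIG1 held the palindrome TCACGTGA at -56, present in 0.98% of windows, and a CCAAT box at -170. Of the other members only SCAP held any of the 3 motifs, an E-box at -58. An E-box lay in 7.26% of all windows and a CCAAT box in 34.6%, so that a single match to either is common. The GC box GGGCGG, the site of Sp1-type factors, lay in 45.0% of all windows and in those of 5 of the 7 members, MBTPS1 and MBTPS2 having none. INSIG2 has a second RefSeq start, and its window held no further motif of these kinds except the same GC box. SREBF1, with 23 annotated transcripts, had 1 window, and any other start of this gene was not searched. Of the genes of sterol synthesis and uptake and of fatty acid synthesis listed below, 16 and 13 had a window. The SRE core lay in 0 and 1 of these, TCACGTGA in 0 and 0, the E-box in 2 and 1, and a CCAAT box in 14 and 9. A match is a description of the letters, and binding was not measured.

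**Figure D1:**
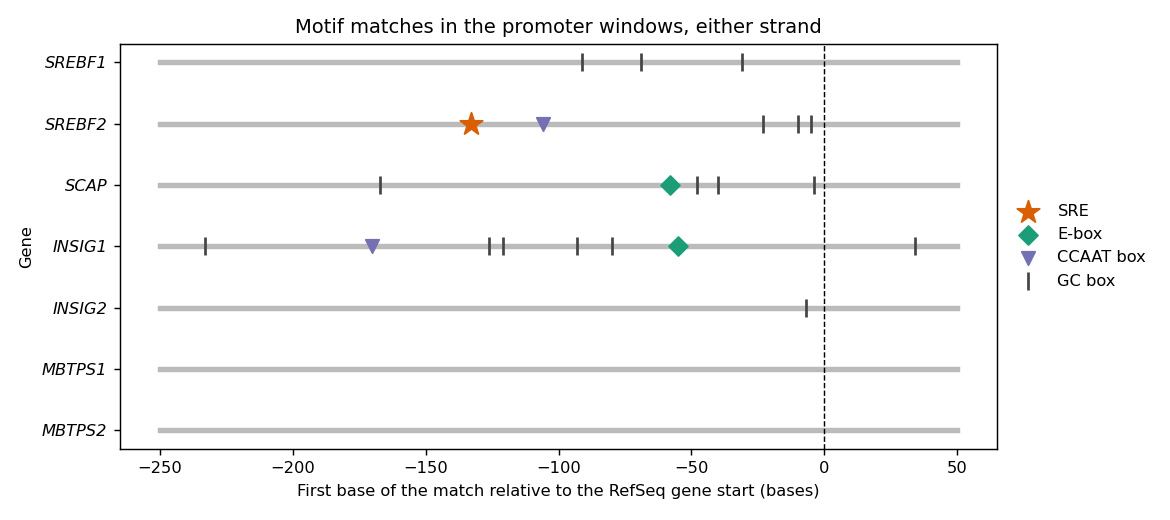
Positions of motif matches in the promoter windows of the 7 genes; the horizontal axis is the first base of each match relative to the RefSeq gene start in bases, each grey line is a window of 250 bases before to 50 after the start, and symbols mark the SRE, E-box, CCAAT box and GC box. The SRE appears only in the SREBF2 window, E-boxes in the SCAP and INSIG1 windows, and no match in those of MBTPS1 and MBTPS2.

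SREBF1 and SREBF2 also host miR-33b and miR-33a in introns, microRNAs known to act on cholesterol export genes. Their RefSeq mature sequences are given because the host genes changed in opposite directions with BAQ13, with capitals on the seed (bases 2 to 8), which they share.

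hsa-miR-33b-5p, host SREBF1: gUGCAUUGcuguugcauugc

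hsa-miR-33a-5p, host SREBF2: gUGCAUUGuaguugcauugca

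The libraries did not measure the mature forms. The rows of the hairpin genes MIR33B and MIR33A held 1 and 0 reads in all 15 libraries together.

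The deposited values are normalised counts, that is, reads per gene divided by the size factor of the library, and they are given on that scale unless a log2 value is named. The libraries held 1586566 to 2500551 reads on genes, with a median of 2230594, and 10495 genes passed the filter on low counts, including all 7 members. Each member had reads in all 15 libraries, from 21 reads for INSIG2 to 718 for INSIG1, and a floor of 3 reads corresponds to a normalised count of 2.49 to 4.14. BAQ12 replicate 3 stood apart. The SD of its log2 differences from the other two BAQ12 libraries was 0.67, against 0.31 to 0.46 for the remaining 14 libraries compared in the same way, and calls of members that change without it are given both ways. As a check on the epithelial label, the keratins KRT8, KRT18 and KRT19 had normalised counts of 175 to 970 in every library, whereas EPCAM and KRT7 did not exceed 1.38 and CDH1 did not exceed 6.28. Of 11 markers of other cells, CD3E, PECAM1, PRSS1 and GCG were at 0 throughout, while the collagen gene COL1A2 was at 148 to 252 and COL3A1 at 20.7 to 44.8. The summed level of these 11 markers ranged from 260 to 293 in the vehicle libraries, 215 to 233 with Lys05, 183 to 205 with BAQ12, 179 to 198 with BAQ13 and 219 to 248 with BAQ12O, and that of the 6 epithelial markers from 1715 to 1795 with vehicle, 1388 to 1574 with Lys05, 1381 to 1556 with BAQ12, 1362 to 1380 with BAQ13 and 1364 to 1487 with BAQ12O. The sums hide differences between markers. With BAQ13, KRT8 and KRT18 stood at 55.5% and 70.5% of their vehicle means, while KRT19 stood at 109%. COL1A2 and COL3A1 made up most of the sum of the 11 markers. The part of these markers in the results below was not tested.

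INSIG1, which encodes the sterol-regulated retention protein of the SREBP complex (ENSG00000186480; chr7:155297776-155310235, plus strand, GRCh38), showed the largest change of the 7 genes. The 3 vehicle libraries had normalised counts of 108, 132 and 123, and the 3 Lys05 libraries of 145, 126 and 133. The BAQ12 libraries had 221, 188 and 157. The BAQ13 libraries had 467, 541 and 602, and the BAQ12O libraries 158, 182 and 174. Every BAQ13 library lay above every other library, every BAQ12 and BAQ12O library lay above the vehicle range, and the Lys05 and vehicle ranges overlapped. Groups that do not overlap with vehicle are common. Of all genes tested, 28.9% had this property with BAQ13, 15.4% with BAQ12 and 25.8% with BAQ12O, which also bears on the other members below.

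With BAQ13 NPs, INSIG1 was 4.40-fold higher than in the vehicle group (95% confidence interval 3.64 to 5.32). The group means were 537 ± 67.7 and 121 ± 12.1 (SD, n = 3 each), and the log2 fold change was 2.14 ± 0.13 (SE; adjusted p = 6.31e-09, limma with Benjamini-Hochberg adjustment over 10495 genes). With BAQ12 the mean was 189 ± 32.0 (SD, n = 3), 1.55-fold above vehicle, and INSIG1 rose by a log2 fold change of 0.63 ± 0.13 (SE; adjusted p = 0.0215 by limma). This call depended on single libraries. It was lost without Ctrl replicate 1 (log2 fold change 0.55, adjusted p = 0.124 by limma), Ctrl replicate 3 (0.64, 0.0867), BAQ12 replicate 1 (0.51, 0.0781) or BAQ12 replicate 2 (0.62, 0.0713), and in a fit of only the 6 libraries compared (0.63, 0.359), whereas without BAQ12 replicate 3 it was 0.75 (adjusted p = 0.00023).

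With BAQ12O the INSIG1 mean was 171 ± 12.0 (SD, n = 3), a log2 difference of 0.50 ± 0.13 (SE) that did not pass the threshold in the fit over all libraries (adjusted p = 0.066 by limma). The same difference passed in a fit of only the 6 libraries compared (adjusted p = 0.00109), and without BAQ12 replicate 1 (0.0388) or 3 (0.00406), libraries which enter it only through the shared estimate of the spread. With Lys05 the mean was 135 ± 9.47 (SD, n = 3), and the log2 difference of 0.16 ± 0.13 (SE) did not pass (adjusted p = 0.999 by limma), its 95% confidence interval running from -0.12 to 0.43.

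**Figure D2:**
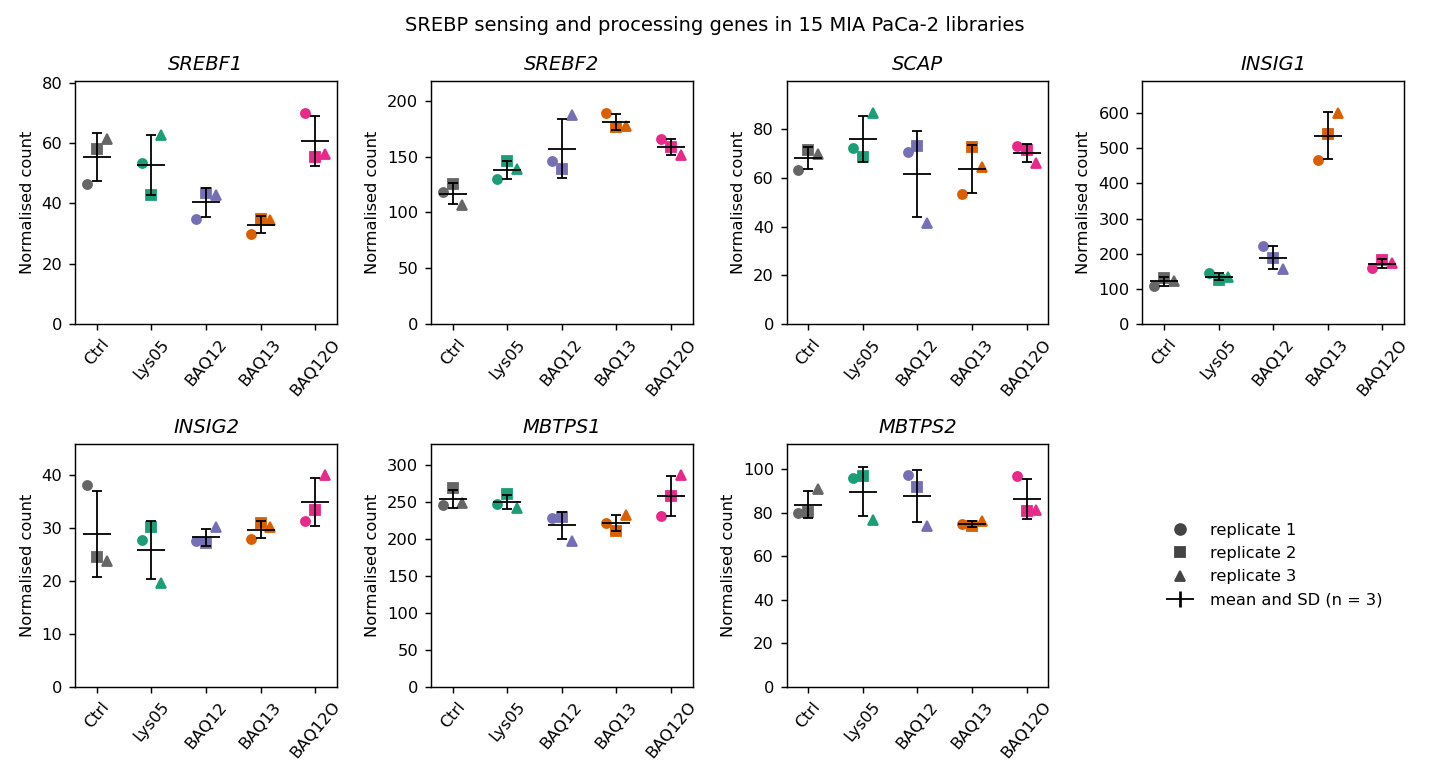
Normalised counts (vertical axes, from 0) of the 7 genes in the 15 libraries, grouped by treatment; symbols are replicates and bars are the mean and SD (n = 3). The 3 BAQ13 libraries of INSIG1 lie between 467 and 602, above the 12 other libraries, while every treated range of SCAP and INSIG2 overlaps that of vehicle.

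INSIG2 (ENSG00000125629; chr2:118088452-118110997, plus strand) encodes the second INSIG protein, which also holds SCAP in the endoplasmic reticulum. Its normalised counts were 38.2, 24.6 and 23.9 with vehicle, 27.7, 30.2 and 19.6 with Lys05, and 27.5, 27.2 and 30.1 with BAQ12. They were 28.0, 31.0 and 30.2 with BAQ13 and 31.3, 33.4 and 40.0 with BAQ12O. All 4 treated ranges overlapped that of the vehicle group, in which replicate 1 was the high library. Log2 differences from vehicle ran from -0.14 for Lys05 to 0.29 for BAQ12O, and none passed (lowest adjusted p = 0.613 by limma). With 21 to 46 reads per library INSIG2 was the least deeply covered member, and its 95% confidence intervals against vehicle reached from 0.664-fold to 1.66-fold.

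The contrast of the paralogues was also read within each library, where the size factor cancels in the plain ratio. The log2 ratios and their tests added 1 to each normalised count, so that it cancels only approximately in those. The ratio of INSIG1 to INSIG2 was 2.83, 5.36 and 5.15 in the vehicle libraries and 16.7, 17.5 and 19.9 in the BAQ13 libraries. It describes a shift between groups and not the relative abundance of the transcripts. Whether that would need a correction for length depends on the library kit, on which the sources disagree. The groups did not overlap, and the log2 ratio was higher by 2.07 with BAQ13 (p = 0.1, two-sided exact permutation test, the smallest value that 3 against 3 libraries allow). With the other compounds the ratio ranged from 4.17 to 8.03, and the log2 differences from vehicle were 0.30 for Lys05, 0.63 for BAQ12 and 0.21 for BAQ12O (exact permutation p = 0.5, 0.2 and 0.7).

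SREBF2 (ENSG00000198911; chr22:41833079-41907308, plus strand) encodes SREBP-2, the main activator of cholesterol synthesis. The vehicle libraries had normalised counts of 119, 125 and 106, the Lys05 libraries 130, 146 and 139, and the BAQ12 libraries 146, 139 and 187. The BAQ13 libraries had 189, 177 and 178, and the BAQ12O libraries 166, 158 and 152. In each of the 4 treated groups every library lay above the 3 vehicle libraries, with BAQ12 replicate 3 far above the other two of its group.

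SREBF2 rose 1.55-fold with BAQ13 (95% confidence interval 1.31 to 1.84), from 117 ± 9.45 to 181 ± 7.05 (SD, n = 3 each), a log2 fold change of 0.63 ± 0.12 (SE; adjusted p = 0.00248 by limma). SREBF2-AS1, which overlaps an exon of SREBF2 on the opposite strand, had 0 to 6 reads per library, against 110 to 212 for SREBF2. The call held in all 7 alternative settings and in all 15 fits that left out a library, where the adjusted p reached 0.0224. The log2 differences with BAQ12 and BAQ12O were 0.42 ± 0.12 and 0.44 ± 0.12 (SE) and did not pass (adjusted p = 0.134 and 0.0749 by limma). Without BAQ12 replicate 3 the BAQ12 difference was 0.28 (adjusted p = 0.361 by limma), and the unchanged BAQ12O difference passed at 0.00737, as it did in a fit of only the 6 libraries compared (0.00461). With Lys05 the log2 difference was 0.24 ± 0.12 (SE; adjusted p = 0.993 by limma), and its groups not overlapping is a property shared by 15.6% of the genes tested in that comparison.

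SREBF1 (ENSG00000072310; chr17:17810399-17837002, minus strand) encodes the SREBP-1 isoforms, known activators of fatty acid synthesis genes, and the gene-level value does not separate them. The vehicle libraries had normalised counts of 46.5, 58.1 and 61.5, the Lys05 libraries 53.2, 42.7 and 62.5, and the BAQ12 libraries 34.9, 43.4 and 42.7. The BAQ13 libraries had 29.9, 34.6 and 34.4, and the BAQ12O libraries 70.1, 55.3 and 56.5. The BAQ12 and BAQ13 libraries lay below every vehicle library, whereas the Lys05 and BAQ12O ranges overlapped the vehicle range.

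SREBF1 fell with BAQ13 to 0.605-fold of the vehicle level (95% confidence interval 0.468 to 0.783), from 55.4 ± 7.86 to 33.0 ± 2.68 (SD, n = 3 each), a log2 fold change of -0.72 ± 0.18 (SE; adjusted p = 0.0194 by limma). The call was lost without Ctrl replicate 2 (-0.69, adjusted p = 0.0849 by limma), Ctrl replicate 3 (-0.64, 0.101) or BAQ13 replicate 1 (-0.66, 0.0826), and the direction was the same in all 15 fits that left out a library. The log2 difference with BAQ12 was -0.45 ± 0.18 (SE) and did not pass (adjusted p = 0.341 by limma), and those with Lys05 and BAQ12O were -0.07 and 0.13 (adjusted p = 0.999 and 0.809). The SREBF1 gene overlaps RAI1, on the opposite strand, over 1055 bases at its 3′ end (chr17:17810399-17811453). The labels name a 3′ tag kit, which reads the 3′ ends of transcripts, and the study's methods a directional kit. If strand was not used, reads in this stretch could not be told apart, and how they were counted is unsettled. RAI1 itself had 133 ± 15.9 with vehicle and 129 ± 20.3 with BAQ13 (SD, n = 3 each), a log2 difference of -0.04 (adjusted p = 0.898 by limma).

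The balance of the SREBP genes was also read as the ratio of SREBF2 to SREBF1 in each library, which does not show which gene moved. As above, only the plain ratio is fully free of the size factor. It was 2.55, 2.15 and 1.73 in the vehicle libraries and 6.34, 5.11 and 5.17 in the BAQ13 libraries, which did not overlap. The log2 ratio was higher than in the vehicle group by 1.36 with BAQ13 and by 0.86 with BAQ12, whose ratios of 3.20 to 4.38 also lay above the vehicle range (p = 0.1 for each, two-sided exact permutation test, the smallest possible value). With Lys05 and BAQ12O the differences were 0.32 and 0.31 (exact permutation p = 0.4 and 0.2).

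**Figure D3:**
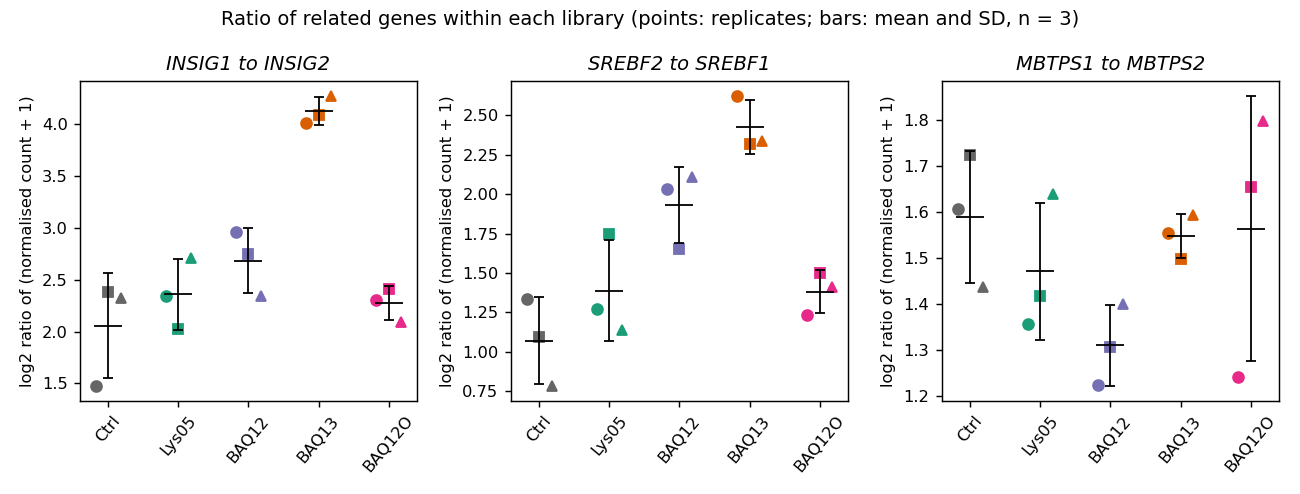
Log2 ratio of the normalised counts, with 1 added to each, of related genes within each library (vertical axes), by treatment. Symbols are replicates and bars the mean and SD (n = 3). With BAQ13 the INSIG1 to INSIG2 and SREBF2 to SREBF1 ratios lie above all vehicle libraries, by 2.07 and 1.36 on average, while the MBTPS1 to MBTPS2 ratio differs from vehicle by -0.04.

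SCAP (ENSG00000114650; chr3:47413694-47477126, minus strand) encodes the sterol-sensing escort of the SREBPs. Normalised counts were 63.1, 71.5 and 69.8 with vehicle, 72.4, 68.7 and 86.8 with Lys05, and 70.6, 73.1 and 41.5 with BAQ12. They were 53.2, 72.9 and 64.5 with BAQ13 and 73.3, 71.5 and 66.2 with BAQ12O. The groups overlapped throughout, and the low BAQ12 value came from replicate 3, the library that stood apart. No log2 difference from vehicle passed: the values were 0.15 for Lys05, -0.18 for BAQ12, -0.11 for BAQ13 and 0.05 for BAQ12O (lowest adjusted p = 0.697 by limma). Without BAQ12 replicate 3 the BAQ12 difference changed sign to 0.08, also uncalled.

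MBTPS1 (ENSG00000140943; chr16:84053761-84116906, minus strand) encodes site-1 protease, which makes the first cut in the lumenal loop of the SREBPs. Normalised counts were 245, 268 and 248 with vehicle, 247, 260 and 241 with Lys05, and 228, 229 and 197 with BAQ12. They were 221, 211 and 232 with BAQ13 and 231, 257 and 285 with BAQ12O. The BAQ12 and BAQ13 libraries lay below all vehicle libraries, but by small margins, with log2 differences of -0.22 ± 0.10 and -0.20 ± 0.10 (SE) that did not pass (adjusted p = 0.408 and 0.293 by limma). The 95% confidence intervals of all 4 comparisons lay between 0.744-fold and 1.17-fold, the narrowest among the members.

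MBTPS2 (ENSG00000012174; chrX:21839636-21885424, plus strand) encodes site-2 protease, which makes the second cut within the membrane. Normalised counts were 79.7, 80.4 and 90.9 with vehicle, 95.8, 96.9 and 76.5 with Lys05, and 97.2, 91.8 and 74.1 with BAQ12. They were 74.7, 73.8 and 76.3 with BAQ13 and 97.0, 81.0 and 81.3 with BAQ12O. The BAQ13 libraries lay just below the vehicle range, and the other groups overlapped it. Log2 differences ran from -0.15 for BAQ13 to 0.09 for Lys05, and none passed (lowest adjusted p = 0.596 by limma). YY2, a gene on the same strand that overlaps an exon of MBTPS2, had 4 to 20 reads per library, against 59 to 108 for MBTPS2. The ratio of MBTPS1 to MBTPS2 was 2.73 to 3.33 in the vehicle libraries and 2.85 to 3.04 in the BAQ13 libraries, and the log2 ratio differed from vehicle by -0.28 with BAQ12 (p = 0.1, two-sided exact permutation test), by -0.12 with Lys05 and by -0.02 with BAQ12O.

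**Figure D4:**
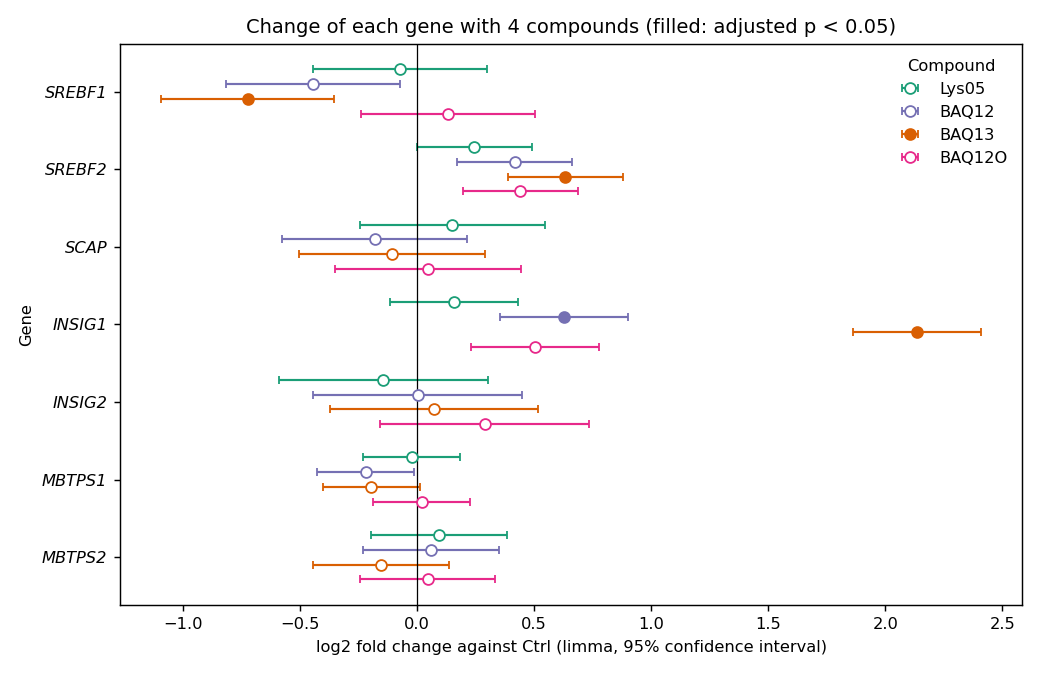
Log2 fold change against the vehicle group (horizontal axis) of the 7 genes for the 4 compounds, with 95% confidence intervals from limma; filled points have an adjusted p under 0.05. INSIG1 with BAQ13 stands at 2.14, SREBF2 and SREBF1 with BAQ13 at 0.63 and -0.72, and the intervals of SCAP, INSIG2 and MBTPS2 all include 0.

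By comparison with vehicle, members passed the test in 4 of 28 pairs of gene and compound. With BAQ13 there were 3 of 7 members, against 5.77% of all genes tested: INSIG1 and SREBF2 higher (3.58% of all genes were called higher) and SREBF1 lower (2.19%). With BAQ12 INSIG1 was called, against 0.981% of all genes. The test called 0 of 7 members with Lys05 (0.238% of genes called) or BAQ12O (1.48%), and edgeR and DESeq2 on the recovered reads also called 0 of 7 in both. With BAQ12O, other fits called members. A fit of only the 6 libraries compared called 2 (871 genes called in all), as did the fit without BAQ12 replicate 3 (524). The fit without BAQ12 replicate 1 called 1 (171). At an unadjusted p under 0.05 by limma there were 2 members with BAQ12O, INSIG1 and SREBF2 (12.8% of all genes), 0 with Lys05 (4.98%), 4 with BAQ12 (11.8%) and 3 with BAQ13 (19.4%). Groups that did not overlap with vehicle were seen for 5 members with BAQ13 (28.9% of all genes), 4 with BAQ12 (15.4%), 2 with BAQ12O (25.8%) and 1 with Lys05 (15.6%). The counts with BAQ12O and Lys05 lay near those shares. The 4 comparisons use the same 3 vehicle libraries. In a test for any difference among the 5 groups, INSIG1 (adjusted p = 2.29e-08), SREBF2 (0.0273) and SREBF1 (0.0311) passed in limma's F test, against 3.03% of all genes, and the other 4 members had adjusted p-values from 0.37 to 0.733. INSIG1 passed this test in all 15 fits that left out a library. SREBF1 lost it in 9 of 15, without Ctrl replicate 2 (adjusted p = 0.0742 by limma) or 3 (0.0729), Lys05 replicate 1 (0.0577), BAQ13 replicate 1 (0.115), 2 (0.0944) or 3 (0.0825), or BAQ12O replicate 1 (0.077), 2 (0.0543) or 3 (0.0562). SREBF2 lost it in 7 of 15, without Ctrl replicate 1 (adjusted p = 0.0876 by limma), 2 (0.0605) or 3 (0.139), BAQ13 replicate 1 (0.0855), 2 (0.0815) or 3 (0.0681), or BAQ12O replicate 2 (0.0525).

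All 4 compounds were given at 5 µM for 24 h, and the 6 pairs of compounds were compared for the 7 members, giving 42 differences. An equal dose was not an equal effect on growth. The paper reports that BAQ12 and BAQ13 inhibited this cell line more potently than Lys05, and its text gives no potency for BAQ12O. Whether these differences in potency had a part in the differences between compounds was not tested. INSIG1 was 2.85-fold higher with BAQ13 than with BAQ12, compounds of a series that differs in tail length (log2 difference 1.51, 95% confidence interval 1.24 to 1.78; adjusted p = 5.61e-06 by limma, and 2.81e-06 adjusted over the genes of all 6 pairs). It was the only member called in this comparison, in which 0.562% of all genes were called. For SREBF2 and SREBF1 the differences of BAQ13 from BAQ12 were 0.22 (interval -0.03 to 0.46) and -0.28 (-0.65 to 0.09) on the log2 scale. Without BAQ12 replicate 3 the SREBF2 difference was 0.35 (adjusted p = 0.0884 by limma) and that of SCAP turned from 0.07 to -0.19 (0.62). For SCAP, INSIG2 and MBTPS2 the intervals also spanned 0, and that of MBTPS1 ran from -0.18 to 0.23.

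Against Lys05, which lacks the long tail, INSIG1 was 3.94-fold higher with BAQ13 (log2 difference 1.98, interval 1.71 to 2.25; adjusted p = 3.48e-08 by limma), again the only member called, against 2.66% of all genes. SREBF1 and SREBF2 differed between BAQ13 and Lys05 by -0.65 and 0.39 on the log2 scale without passing (adjusted p = 0.0595 and 0.0955 by limma), and both passed without BAQ12 replicate 3 (0.0187 and 0.0138). BAQ12 differed from Lys05 by 0.47 for INSIG1 (interval 0.20 to 0.74; adjusted p = 0.295 by limma), which became 0.60 (adjusted p = 0.0164) without BAQ12 replicate 3, and no member was called in the fit of all libraries, against 0.162% of genes.

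Between BAQ12O and BAQ13, INSIG1 was lower with BAQ12O (log2 difference -1.64, interval -1.91 to -1.36; adjusted p = 2.23e-06 by limma) and SREBF1 was higher (0.86, interval 0.48 to 1.23; adjusted p = 0.018), 2 of 7 members against 1.39% of all genes. The SREBF1 call was lost without BAQ13 replicate 1 (0.79, adjusted p = 0.0799 by limma), BAQ13 replicate 2 (0.89, 0.0587) or BAQ12O replicate 1 (0.75, 0.115). BAQ12O and BAQ12 differed by -0.13 for INSIG1 (interval -0.40 to 0.15), by 0.02 for SREBF2 (-0.22 to 0.27) and by 0.58 for SREBF1 (0.20 to 0.95; adjusted p = 0.338 by limma), and no member was called, against 0.229% of genes. Without BAQ12 replicate 3 these differences were -0.25, 0.16 and 0.62 (lowest adjusted p = 0.165 by limma). BAQ12O and Lys05 also gave no called member, against 0.248% of genes, with INSIG1 at 0.34 (interval 0.07 to 0.62; adjusted p = 0.521 by limma).

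Ordered by mean level, INSIG1 ran from BAQ13 through BAQ12, BAQ12O and Lys05 to vehicle, and BAQ13 and BAQ12 were the only neighbours that differed by the test. SREBF2 ran from BAQ13 through BAQ12O, BAQ12 and Lys05 to vehicle, and SREBF1 from BAQ12O through vehicle, Lys05 and BAQ12 to BAQ13. No neighbours in the SREBF2 and SREBF1 orders, nor in those of SCAP, INSIG2, MBTPS1 and MBTPS2, differed by the test.

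The genes on which the SREBPs act were read from lists compiled by function. Calls in the lists are from the fit of all libraries and were not repeated without BAQ12 replicate 3. Without that library, all genes called went from 606 to 1441 with BAQ13 and from 103 to 137 with BAQ12. They went from 155 to 524 with BAQ12O and from 25 to 51 with Lys05. Of 23 genes of sterol synthesis and uptake, 21 were tested; with BAQ13, 19 were called higher and none lower, with a median log2 fold change of 1.68, against -0.0042 for all genes tested, of which 5.77% were called. With BAQ12, 10 of the 21 were called higher (median 0.72; 0.981% of all genes called), with BAQ12O 7 (0.54; 1.48%) and with Lys05 none (0.13; 0.238%). HMGCS1, which makes HMG-CoA for the mevalonate pathway, went from 57.3 ± 2.37 with vehicle to 611 ± 58.5 with BAQ13 (SD, n = 3 each; log2 fold change 3.39, adjusted p = 1.88e-08 by limma) and to 135 ± 57.3 with BAQ12 (1.12, 0.0178). MSMO1, a sterol C4-methyl oxidase, rose by 2.84 with BAQ13, 1.44 with BAQ12 and 1.13 with BAQ12O on the log2 scale (adjusted p = 7.57e-10, 1.11e-05 and 0.000438 by limma). MVD, the mevalonate diphosphate decarboxylase, and LSS, the lanosterol synthase, rose by 2.83 and 2.22 with BAQ13 (adjusted p = 2.9e-07 and 2.47e-07). INSIG1, at 2.14 with BAQ13, lay within the range of these targets, which was 0.30 to 3.39, while SREBF2 at 0.63 lay near its lower end.

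Of 15 genes of fatty acid synthesis, all tested, 10 were called higher with BAQ13, 4 with BAQ12, 3 with BAQ12O and 1 with Lys05, none being called lower, and the medians were 0.92, 0.40, 0.24 and 0.10. The shares of all genes called in these comparisons were 5.77%, 0.981%, 1.48% and 0.238%. ACSS2, which makes acetyl-CoA from acetate, rose by 2.74 with BAQ13, FASN, the fatty acid synthase, by 1.77, ELOVL6, an elongase, by 1.69 and ACLY, the ATP citrate lyase, by 1.42 on the log2 scale (adjusted p = 1.36e-07, 3.97e-10, 2.13e-05 and 3.89e-06 by limma). In the same libraries SREBF1 fell. Of 7 liver X receptor targets, a class that shares a known regulator with SREBF1, 4 were tested. With BAQ13, 3 of the 4 were called lower, against 2.19% of all genes, and none higher (median -1.34). These were ABCG1, a sterol exporter (24.1 ± 1.36 with vehicle, 6.04 ± 2.33 with BAQ13; SD, n = 3 each; log2 fold change -1.90, adjusted p = 0.000681 by limma), ABCA1, the exporter to apolipoprotein A-I (-1.69, 0.00806), and MYLIP, the ubiquitin ligase of the LDL receptor (-0.88, 0.0046). ABCA1 was low, at 9.64 ± 1.01 with vehicle and 2.35 ± 0.871 with BAQ13 (SD, n = 3 each), the latter mean below the floor of 3 reads. The lowest BAQ13 library of ABCG1, at 3.35, was also close to that floor. No liver X receptor target was called with Lys05, BAQ12 or BAQ12O, where the medians were -0.07, -0.71 and -0.28. With BAQ12 all 4 tested targets were nonetheless below vehicle, by log2 differences from -1.04 to -0.35. Whether the liver X receptors had a part in the fall of SREBF1 was not tested, and the gene-level value does not separate its isoforms.

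**Figure D5:**
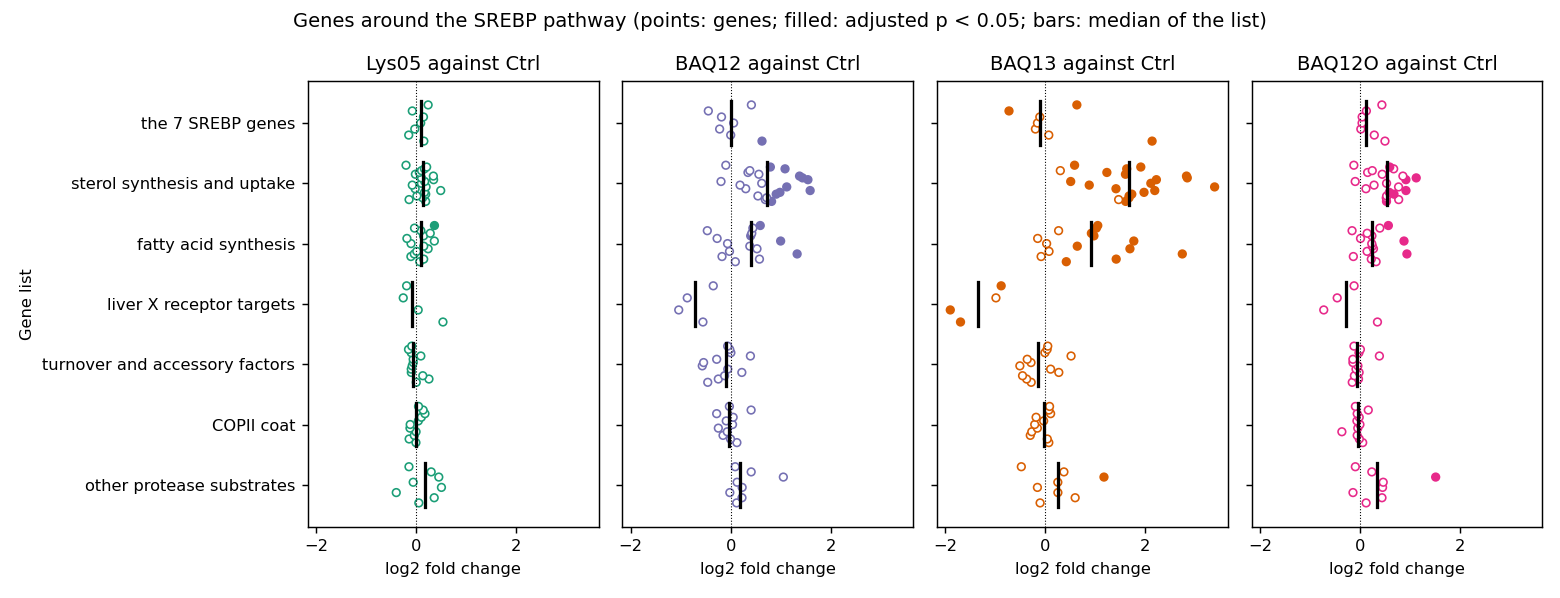
Log2 fold change against vehicle (horizontal axes) of the genes of 7 lists for the 4 compounds; points are genes, filled where the adjusted p by limma is under 0.05, and bars are list medians. With BAQ13 the sterol list has a median of 1.68 and the liver X receptor list of -1.34, while no point of the COPII or turnover lists is filled for any compound.

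Genes of proteins that move, degrade or stabilise the SREBP complex passed no test against vehicle. The shares of all genes called were 5.77% with BAQ13, 0.981% with BAQ12, 1.48% with BAQ12O and 0.238% with Lys05. At those shares, lists this short would hold few or no calls. None of 12 turnover and accessory factors, including the ubiquitin ligase RNF139 and the accessory factor SPRING1, was called with any compound, with log2 differences from -0.51 to 0.52 for BAQ13. None of 11 COPII coat genes was called either, with log2 differences from -0.30 to 0.11 for BAQ13. Among 8 other substrates of the proteases encoded by MBTPS1 and MBTPS2, such as the stress sensor ATF6, CREB3L3 was the only one called. This membrane-bound transcription factor of lipid metabolism had 27.0 ± 3.08 with vehicle, 66.1 ± 29.7 with BAQ13 and 79.8 ± 15.2 with BAQ12O (SD, n = 3 each), and rose by 1.18 and 1.52 on the log2 scale (adjusted p = 0.0283 and 0.015 by limma).

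For the 3 members called against vehicle, the genes with the most similar profile were taken as those with the smallest root-mean-square difference in log2 level, centred on the vehicle mean, over the 15 libraries. For INSIG1 they were BIRC3 (0.207), an inhibitor of apoptosis, and the sterol synthesis genes IDI1 (0.233) and FDFT1 (0.238). BIRC3 had normalised counts of 23.7 ± 2.27 with vehicle and 106 ± 5.70 with BAQ13 (SD, n = 3 each). For SREBF2 they were the golgin gene GOLGA4 (0.0989), PHF3 (0.107) and TPP1 (0.118), a lysosomal peptidase whose level was 118 ± 8.48 with vehicle and 191 ± 1.16 with BAQ13 (SD, n = 3 each). For SREBF1 they were NCEH1 (0.171), a cholesteryl ester hydrolase at 454 ± 37.5 with vehicle and 285 ± 10.1 with BAQ13 (SD, n = 3 each), the phosphate transporter gene SLC20A2 (0.196) and SRRM1P2 (0.202), a pseudogene whose reads may belong to its parent gene.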

How the data were processed

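RNA was sequenced from 15 MIA PaCa-2 libraries. The authors deposited 1 normalised signal per gene and library. The submitters' processing notes name STAR, HTSeq, DESeq2 and GRCh38/hg38 without roles or versions. The labels name a 3′ tag kit and the study's methods a directional kit, so the counting strand is unsettled. All values (100%, within 0.01 of a whole number) were whole multiples of 1 read, so reads were recovered.

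Genes passing filterByExpr (minimum count 10, total 15) were tested with limma 3.58.1 (eBayes with a variance trend, R 4.3.3) on log2(value + 1) over all 15 libraries, with Benjamini-Hochberg adjustment over 10495 genes per comparison and calls at 0.05; fold changes on this scale understate those of low genes. Alternatives were edgeR 4.0.16 and DESeq2 1.42.0 on the recovered reads, TMM scaling, a pseudocount of 5, no filter, the replicate number as a block, only the 6 libraries compared, and leaving out each library. limma recovered 82.5% of 200 genes changed in simulated data on 10495 genes for BAQ13 against vehicle, with 7 false calls. Recovery at the sizes seen for the members was not tested separately. Gene positions are from GENCODE 29. Named list genes were, per list, up to 4 called genes, ranked by size in the comparison with most calls. Members and lists were chosen with earlier results of these data known. Groups came from the sample labels; intervals cover the spread between libraries.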

Additional observations from a re-analysis of the deposited data

How the results depend on the processing

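The direction and call of INSIG1 and SREBF2 with BAQ13 held in all 7 alternative settings and in 15 of 15 fits that left out a library; SREBF1 with BAQ13 was called in 7 of 7 settings and 12 of 15 such fits, and INSIG1 with BAQ12 in 5 of 7 and 11 of 15. Replicate numbers did not pair the libraries (correlations of same-numbered deviations from -0.49 to 0.20, no comparison with all 3 over 0.1); with the replicate number as a block, 0 members were called for BAQ12 against vehicle (INSIG1 adjusted p = 0.0563 by limma) and 1 member in the test over all groups (SREBF1 adjusted p = 0.0635 and SREBF2 0.0766 by limma), and no other call of a member changed in its comparison with vehicle.

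A fit of only the 6 libraries compared, which holds BAQ12 replicate 3 only in the comparisons with BAQ12, called 0 members for BAQ12 and 2 for BAQ12O against vehicle. It called 115 genes for Lys05, 31 for BAQ12, 947 for BAQ13 and 871 for BAQ12O against vehicle, 0 for BAQ12 and 223 for BAQ12O against Lys05, and 9 for BAQ13 and 8 for BAQ12O against BAQ12, where the fit of all libraries called 25, 103, 606, 155, 17, 26, 59 and 24. For BAQ12 against Lys05, DESeq2 called 26 genes and no filter on low values 11.

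Leaving out a library gave 0 to 1 members for BAQ12, 2 to 3 for BAQ13 and 0 to 2 for BAQ12O against vehicle, 0 to 1 for BAQ12 and 1 to 3 for BAQ13 against Lys05, 1 to 2 for BAQ12O against BAQ13 and 1 to 3 over all groups. Genes called ranged from 19 to 51 for Lys05, 56 to 137 for BAQ12, 320 to 1441 for BAQ13 and 75 to 524 for BAQ12O against vehicle, from 8 to 26, 154 to 814 and 20 to 83 for BAQ12, BAQ13 and BAQ12O against Lys05, from 32 to 332 and 14 to 54 for BAQ13 and BAQ12O against BAQ12, and from 72 to 387 for BAQ12O against BAQ13. In each of these 10 comparisons the highest count came without BAQ12 replicate 3.

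Signs changed only among values that passed no test. INSIG2 with BAQ12 was -0.0536 with edgeR, -0.0526 with DESeq2 and -0.00085 with a pseudocount of 5. Without a library, log2 differences from vehicle with Lys05 ranged from -0.20 to 0.0689 for SREBF1, -0.26 to 0.0674 for INSIG2 and -0.0547 to 0.0168 for MBTPS1. With BAQ12 they ranged from -0.0175 to 0.18 for MBTPS2, -0.32 to 0.0781 for SCAP and -0.11 to 0.21 for INSIG2. With BAQ13 they ranged from -0.21 to 0.0122 for SCAP and -0.0445 to 0.28 for INSIG2, and with BAQ12O from -0.0401 to 0.10 for MBTPS2, -0.00699 to 0.0889 for SCAP and -0.0561 to 0.0968 for MBTPS1. The log2 ratio of INSIG1 to INSIG2 with BAQ12O ranged from -0.0771 to 0.37, and that of MBTPS1 to MBTPS2 from -0.12 to 0.0264 with BAQ13 and from -0.14 to 0.14 with BAQ12O. The causes were not tested.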
